A study of Mus musculus with 24 samples.

Results

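The families of amino acid carriers named Slc1, Slc3, Slc6, Slc7, Slc36, Slc38 and Slc43 were followed in polysome-associated RNA of mouse liver. Members were all genes whose mouse symbol starts with Slc1a, Slc3a, Slc6a, Slc7a, Slc36a, Slc38a or Slc43a. That gave 67 symbols, of which 3 belong to antisense RNA genes that were set aside, and 64 protein-coding genes remained of the 52636 genes in the files. A symbol does not fix what a protein carries: Slc6 also holds carriers of monoamines and creatine, and Slc7a6os shares a locus name with a carrier but is none itself.

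The tested mice were under calorie restriction (CR), a diet cut by 30% that began at 2 months of age and lasted 3 months, and their controls ate ad libitum (AL). All were C57BL/6 mice of 5 months, with no allele or drug named. Livers were taken at zeitgeber time (ZT, hours of the light cycle) 2, 6, 10, 14, 18 and 22, which gave 12 groups of 2 libraries, 24 in all. RNA was recovered with polysomes, so that transcripts under translation were counted, and selected by its poly(A) tail. Total RNA was not analysed here, and neither the feeding hours of the CR mice nor the separate origin of the libraries of a group is given in the sources used here. At ZT22 the AL pair is labelled 2C and 2d, and what the shared number and the letters stand for is not given. The p-values below measure the spread between libraries, which may be technical.

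Liver takes up amino acids that arrive from the gut in portal blood and those that muscle releases in fasting, and turns their nitrogen into urea and their carbon into glucose. Carriers of the Slc38 family move glutamine and other neutral amino acids together with sodium, those of Slc7 exchange or admit cationic and large neutral amino acids, often as a light chain bound to a heavy chain of the Slc3 family, and those of Slc1 carry glutamate or small neutral amino acids. Slc6 carriers move taurine, betaine, GABA and glycine with sodium and chloride, and Slc36 carriers move small amino acids with protons. Some members of Slc43, not all, are facilitative carriers of large neutral amino acids.

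A library held 13.8 to 60.8 M counted reads (M, mega), and features collecting ribosomal RNA took 1.02% to 62.2% of them, which left 5.64 to 59.6 M other reads. None of the 9 hepatocyte markers was at 0 throughout, and their summed levels were 60671 to 140227 CPM (counts scaled to library size) in CR and 44374 to 111640 CPM in AL livers. Male-biased liver genes, 6 in number, were all lower in CR, and all 6 tested female-biased genes were higher. A pair of CR libraries stood apart here. The male-biased genes summed to 2910 CPM in the library labelled CR ZT6 2 and 4229 CPM in CR ZT18 2, against at most 386 CPM in the other CR libraries and 2280 to 12920 CPM in AL libraries. The female-biased genes summed to 7.11 CPM in CR ZT6 2, against at most 7.56 CPM in AL libraries, and to 232 CPM in CR ZT18 2, where the other CR libraries had at least 209 CPM. CR ZT18 2 also stood apart by transcripts of fat cells, with 2.69 CPM of Adipoq, against at most 1.09 CPM in any other library, and 57.4 CPM of Cfd, against at most 6.44 CPM. AL ZT22 2C held the most acute phase transcripts, 44863 CPM in sum. Without CR ZT6 2 and CR ZT18 2 the 4 calls on the diet average held, with log2 fold changes of 0.73 for Slc7a2, 0.63 for Slc6a6, 0.89 for Slc7a4 and -1.26 for Slc7a7.

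Slc38 carriers dominated the amino acid carriers of liver in both diets. Per kilobase of exon, the highest mean levels over the 24 libraries were those of Slc38a4, a sodium-coupled carrier of neutral amino acids in hepatocytes, with 87.2 CPM per kb, and Slc38a3, the system N carrier that can move glutamine in either direction, with 68.7 CPM per kb. The carrier of GABA and taurine Slc6a13 followed with 33.9 CPM per kb, then the cationic amino acid carrier Slc7a2 with 16.4 and the betaine and GABA carrier Slc6a12 with 12.5. Slc3a2, the heavy chain of several Slc7 light chains, had 7.39 CPM per kb, the taurine carrier Slc6a6 6.50, the glutamate carrier Slc1a2 5.43, Slc38a10 3.92 and the system A carrier Slc38a2 3.03. The ranges of neighbours in this order overlapped over the libraries.

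Summed over libraries, and as shares of reads rather than per length, Slc38 took 62.5% of all member reads, Slc6 15.1%, Slc7 12.4%, Slc1 5.64%, Slc3 2.10%, Slc43 1.35% and Slc36 0.834%. Slc38a3 and Slc38a4 alone made up a median of 57.0% of the member reads of a library (range 47.8% to 64.7%). The summed level of all members lay between 1102 and 2762 CPM in CR livers (median 1174) and between 938 and 1659 CPM in AL livers (median 1145). The highest sums of each diet were those of the ZT10 libraries, 1998 and 2762 CPM in CR and 1599 and 1659 CPM in AL.

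**Figure D1:**
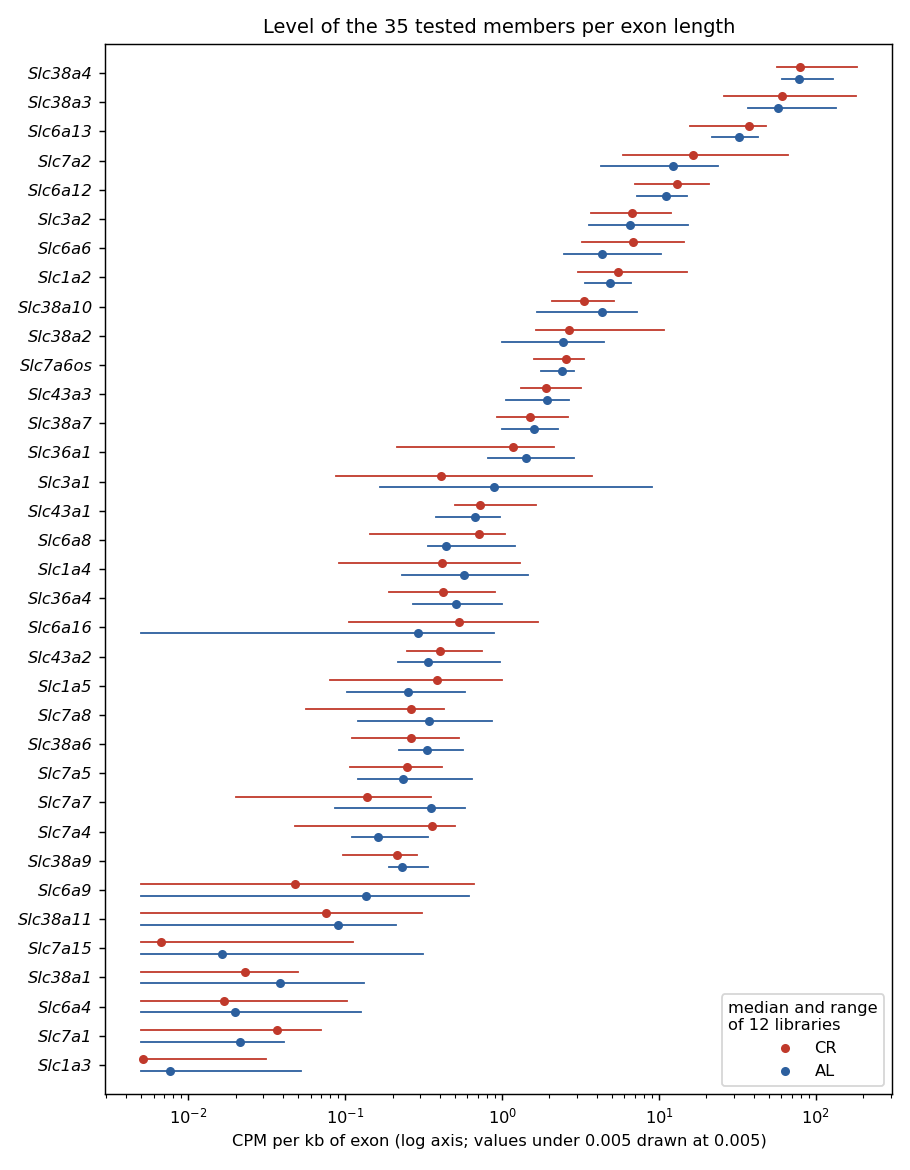
Levels of the 35 tested members in CPM per kb of exon (log axis), with CR above AL for each gene; points are medians and bars the lowest to highest of 12 libraries. Slc38a4, Slc38a3 and Slc6a13 lie highest, and the CR and AL ranges overlap for each member.

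Of the 64 members, 35 passed the filter on low counts and 29 did not. A gene passes when enough libraries of any group reach the minimum, so one that is high in a single group can pass. Among the 29, 10 had no count in any library: Slc36a3 of the proton-coupled family, the neurotransmitter carriers Slc6a3, Slc6a5 and Slc6a11, the amino acid carriers Slc6a14, Slc6a15 and Slc6a18, and Slc7a3, Slc7a12 and Slc7a14. A count of 0 over the 24 libraries allows up to 3 counts, or 0.00371 CPM, by counting error only. The other 19 reached between 1 and 54 counts in their highest library. They include carriers of kidney and gut, such as Slc6a19 with at most 10 counts and Slc7a9 with at most 2, and Slc7a11, the cystine and glutamate exchanger, with at most 4.

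Few members differed between the diets on the average over the 6 time points. Slc7a2 and Slc6a6, and with less support Slc7a4, were higher in CR livers, and Slc7a7 was lower. These 4 are 11.4% of the 35 tested members, against 12.7% of all 15490 tested genes called, so the share of members called was close to that of the background (edgeR's quasi-likelihood test, adjusted p under 0.05 by Benjamini-Hochberg). By direction, 3 of the 35 members were called higher, against 5.6% of all tested genes, and 1 of the 35 lower, against 7.05%. The median log2 fold change of the 35 members was 0.04, against -0.02 over all tested genes. Of the members, 20 had a positive and 15 a negative value, and 9 had an unadjusted p under 0.05.

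**Figure D2:**
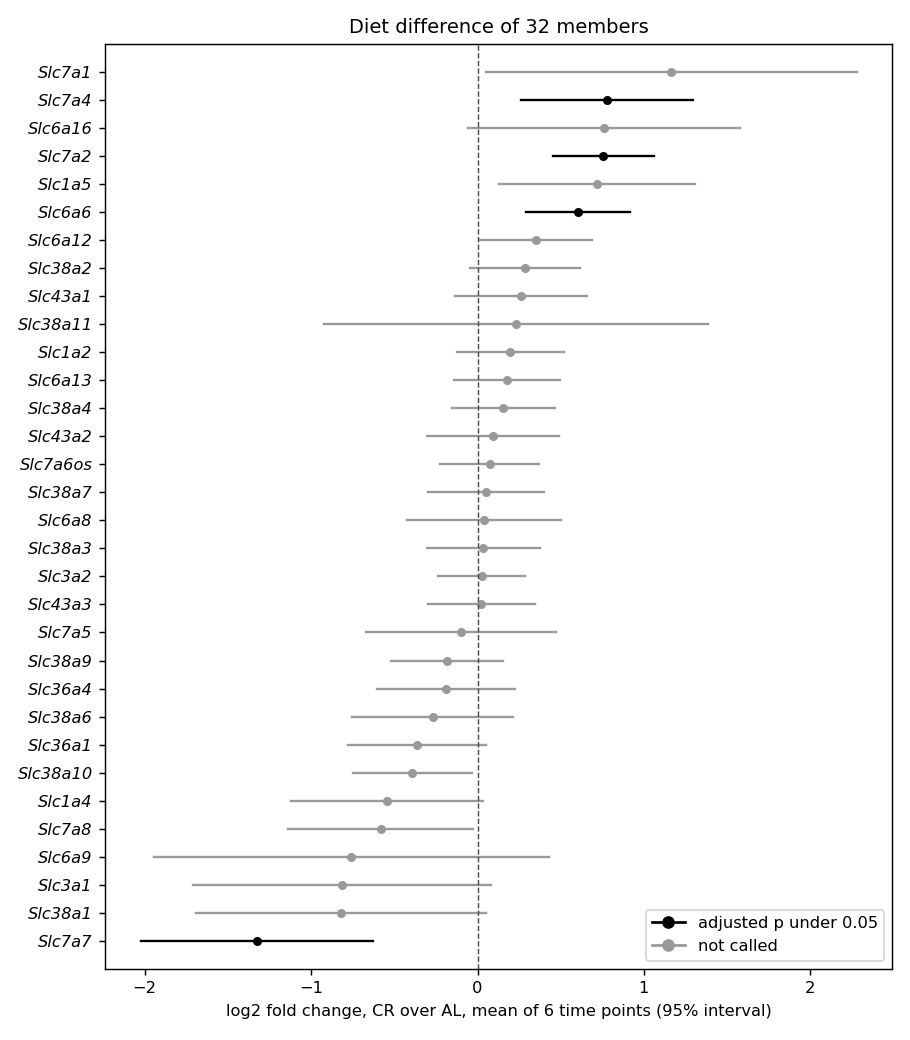
Log2 fold change of CR over AL averaged over the 6 time points for 32 tested members with counts in every group, with 95% intervals; black marks members with an adjusted p under 0.05. Slc7a2 (0.76), Slc6a6 (0.60) and Slc7a4 (0.78) lie right of 0 and Slc7a7 (-1.33) left of it.

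Slc7a2 (ENSMUSG00000031596.15, chromosome 8, 40862396 to 40922308 of GRCm38, plus strand) encodes CAT2, through which hepatocytes take up arginine, lysine and ornithine. At ZT2 it had 208 and 136 CPM in CR livers, against 102 and 121 CPM in AL livers. At ZT6 it had 144 and 214 CPM in CR and 124 and 126 CPM in AL, and at ZT10 313 and 606 CPM in CR and 217 and 163 CPM in AL. The CR libraries were thus above the AL libraries at each of these hours, most of all at ZT10. At ZT14 the values were 138 and 167 CPM in CR and 51.6 and 73.7 CPM in AL, and at ZT18 69.4 and 54.1 CPM in CR and 45.5 and 39.1 CPM in AL. At ZT22 the groups overlapped, with 108 and 155 CPM in CR and 122 and 91.6 CPM in AL. Both CR libraries exceeded both AL libraries at 5 of 6 time points. The average difference was 0.76 ± 0.15 log2 units (± SE), 1.69-fold with a 95% interval of 1.37 to 2.09 (edgeR's quasi-likelihood test, Benjamini-Hochberg adjusted p = 0.00130). Gm26584 overlaps 6.95% of its exon bases, and reads there cannot be told apart.

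Slc6a6 (ENSMUSG00000030096.8, chromosome 6, 91684053 to 91759066, plus strand) encodes the taurine carrier TauT. Taurine is conjugated to bile acids in hepatocytes. The gene had 122 and 58.6 CPM in CR livers at ZT2, against 38.2 and 49.3 CPM in AL livers, and 57.0 and 36.9 CPM in CR at ZT6, against 28.6 and 34 CPM in AL. At ZT10 it had 69.8 and 99.4 CPM in CR and 52.9 and 55.4 CPM in AL. CR was higher at all 3 of these hours, without overlap. At ZT14 the diets overlapped, with 27.2 and 27.6 CPM in CR and 21.2 and 34.1 CPM in AL. The values were 46.0 and 55.5 CPM in CR and 35 and 21 CPM in AL at ZT18, and 93.1 and 112 CPM in CR and 86.4 and 59.0 CPM in AL at ZT22. The groups did not overlap at 5 of 6 time points. The average difference was 0.60 ± 0.15 log2 units, 1.52-fold with a 95% interval of 1.22 to 1.89 (edgeR's quasi-likelihood test, Benjamini-Hochberg adjusted p = 0.0104).

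Slc7a4 (ENSMUSG00000022756.15, chromosome 16, 17572018 to 17583214, minus strand) is a relative of the cationic amino acid carriers whose own transport activity is not established. Its level was low, between 0.199 and 2.07 CPM in CR (median 1.47) and between 0.456 and 1.41 CPM in AL livers (median 0.674). Both CR libraries lay above both AL libraries at ZT2, ZT10, ZT14, ZT18 and ZT22. At ZT2 it had 0.874 and 1.23 CPM in CR and 0.640 and 0.645 CPM in AL. At ZT10 it had 1.73 and 1.54 CPM in CR and 0.513 and 0.744 CPM in AL. The ZT18 values were 1.41 and 1.33 CPM in CR and 0.903 and 0.582 CPM in AL. Those of ZT22 were 1.78 and 1.75 CPM in CR and 1.41 and 0.601 CPM in AL. At ZT14 the values were 2.02 and 2.07 CPM in CR and 0.747 and 0.456 CPM in AL. At ZT6 the order was turned, with 0.670 and 0.199 CPM in CR and 0.825 and 0.703 CPM in AL. The CR ZT6 values rest on 8 and 3 counts. The average difference was 0.78 ± 0.25 log2 units (edgeR's quasi-likelihood test, Benjamini-Hochberg adjusted p = 0.0439). This call depended on many single libraries: it held in 4 of 24 fits that left 1 library out, and the adjusted p reached 0.141 without CR ZT6 1 (the range of these fits was 0.0189 to 0.141, edgeR's quasi-likelihood test, Benjamini-Hochberg adjusted). Without CR ZT18 2 the call was lost, as it was when AL ZT10 1 was left out with AL ZT22 2C. These 2 AL libraries held 9923 and 44863 CPM of acute phase transcripts. AL ZT14 2 held 11550 CPM and was kept in that fit. Where ribosomal RNA took the smaller share, in 12 libraries, the value was 1.402. P2rx6 overlaps 13.3% of its exon bases.

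**Figure D3:**
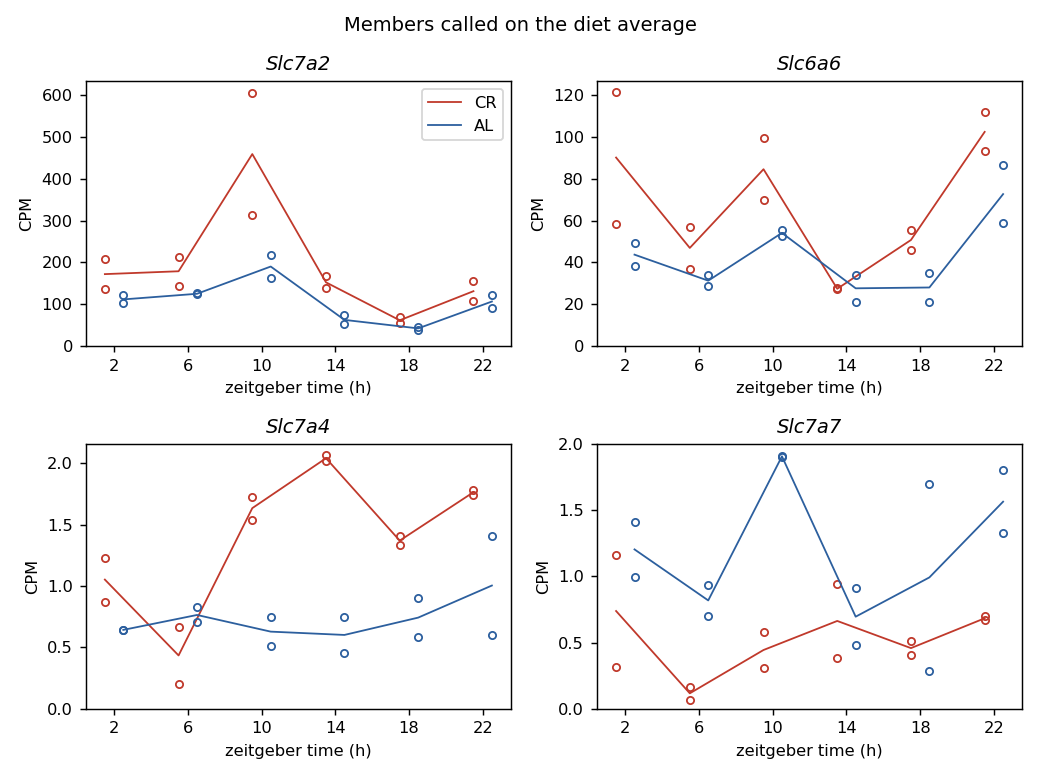
CPM of Slc7a2, Slc6a6, Slc7a4 and Slc7a7 by zeitgeber time, with CR left of AL at each hour; open points are single libraries and lines join the means of 2. Slc7a2 is highest at ZT10 in CR (313 and 606 CPM), and the CR points of Slc7a7 lie under the AL points at ZT6, ZT10 and ZT22.

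Slc7a7 (ENSMUSG00000000958.9, chromosome 14, 54369442 to 54417780, minus strand) encodes the light chain y+LAT1, which with Slc3a2 exports cationic amino acids in exchange for neutral ones and sodium. Loss of the human gene causes lysinuric protein intolerance. It had 0.318 and 1.16 CPM in CR livers at ZT2, against 0.999 and 1.41 CPM in AL livers, and 0.167 and 0.0664 CPM in CR at ZT6, against 0.935 and 0.703 CPM in AL. At ZT10 it had 0.305 and 0.583 CPM in CR, against 1.91 and 1.91 CPM in AL. The diets overlapped at ZT2 and were apart at ZT6 and ZT10. At ZT14 the values were 0.943 and 0.385 CPM in CR and 0.480 and 0.912 CPM in AL, at ZT18 0.406 and 0.511 CPM in CR and 0.285 and 1.70 CPM in AL, and at ZT22 0.670 and 0.698 CPM in CR and 1.33 and 1.80 CPM in AL. The diets overlapped at ZT14 and ZT18 and were apart at ZT22. These levels rest on 1 to 50 counts per CR library and 6 to 108 per AL library.

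The average difference of Slc7a7 was -1.33 ± 0.33 log2 units, a ratio of 0.399 with a 95% interval of 0.246 to 0.646, with a negative value at 6 of 6 time points (edgeR's quasi-likelihood test, Benjamini-Hochberg adjusted p = 0.0111). The call held in each of the 24 fits that left 1 library out, with adjusted p-values from 0.00270 to 0.0467 by the same test. Where ribosomal RNA took the smaller share, in 12 libraries, the value was -2.19. Both diets were present there only at ZT10 and ZT18, so this is not an average over the 6 time points. Oxa1l overlaps 7.0% of the exon bases of Slc7a7. Kupffer cell markers (genes of the liver's own macrophages) were lower in CR as well: of 14 markers, 11 were called lower and 1 higher, and their summed level was 155 to 300 CPM in CR (median 208) and 267 to 744 CPM in AL livers (median 375). None of the 14 was at 0 in all libraries. Their part in the result was not tested. In bulk liver, fewer cells of a type and less RNA per cell cannot be told apart.

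**Figure D4:**
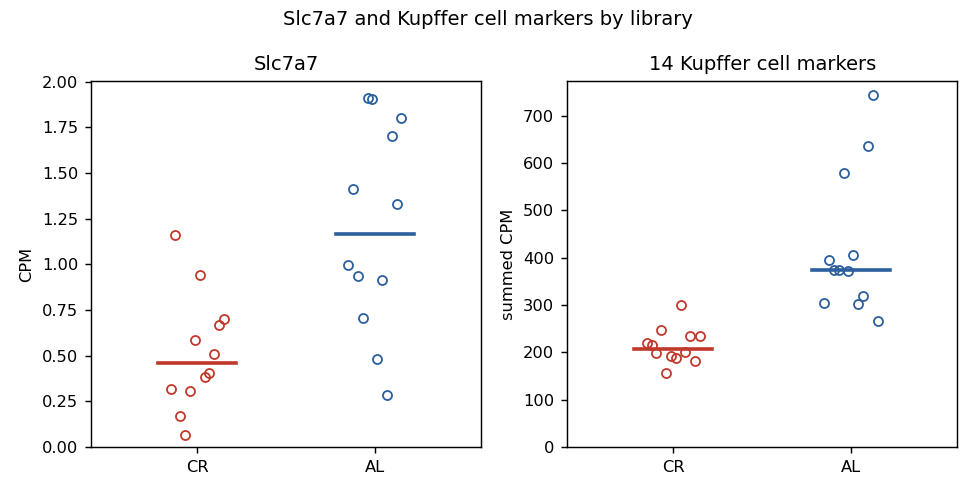
CPM of Slc7a7 (left) and summed CPM of 14 Kupffer cell markers (right) in each of 12 CR and 12 AL libraries, with CR left of AL; thick lines are medians. Marker sums are at most 300 CPM in CR and at least 267 CPM in AL, while Slc7a7 reaches 1.16 CPM in CR and goes down to 0.285 CPM in AL.

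The start region of Slc7a7 is shown because this was the member called lower, and that of Slc1a4 because it is the other tested member that holds the same letters. Sequences are RefSeq's, of GRCm38.p6, with 46 of the 64 members in the table. Capitals mark TGATGNAA or its reverse complement TTNCATCA, searched on both strands, letters of the kind of composite element that ATF4, a factor of amino acid stress, is known to use. Slc7a7 is given at chr14:54417938-54418194, from the first of its 5 listed starts to hold these letters. Slc1a4 is given from its start, chr11:20332710-20332963, and both genes lie on the minus strand. Of the 5 Slc7a7 starts, 2 hold the motif. The stretch printed for Slc7a7 lies upstream of the gene span given above, and the 50 bases after that start were not found in the annotated transcripts of the gene, while those of Slc1a4 were.
Slc7a7: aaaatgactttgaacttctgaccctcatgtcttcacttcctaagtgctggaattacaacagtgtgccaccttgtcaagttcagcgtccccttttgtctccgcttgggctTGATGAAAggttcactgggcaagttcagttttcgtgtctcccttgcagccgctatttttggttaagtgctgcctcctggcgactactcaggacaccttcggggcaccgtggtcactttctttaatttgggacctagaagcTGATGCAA
Slc1a4: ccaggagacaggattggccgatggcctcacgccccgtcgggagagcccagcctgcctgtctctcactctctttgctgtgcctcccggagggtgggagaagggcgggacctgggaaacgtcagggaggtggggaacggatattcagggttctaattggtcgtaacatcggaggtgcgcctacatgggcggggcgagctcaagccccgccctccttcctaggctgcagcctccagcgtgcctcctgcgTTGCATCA

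In Slc7a7 the first bases of the 2 matches stand at -141 and -1 from that start, and in Slc1a4 the match begins at -4. Among 32851 promoters in the table, 3.97% hold the motif within 250 bases before to 50 after the start, and among the 67 starts of the matched members 5 do, 7.46%. These belong to 4 members, which besides these 2 are Slc6a21 and Slc7a11, neither of which passed the filter. Also searched on both strands were CACGTG, in 9 of the 67 starts against 7.15% of all promoters, and TTATGNAA, in 1, that of Slc1a2, against 3.39%. A match is a description of letters and not a site. Slc1a4, the neutral amino acid carrier ASCT1, had 0.358 to 5.10 CPM in CR (median 1.62) and 0.907 to 5.71 CPM in AL livers (median 2.23). Its log2 fold change was -0.54 ± 0.28, with an adjusted p of 0.217 (edgeR's quasi-likelihood test, Benjamini-Hochberg). Slc7a2, Slc6a6 and Slc7a4 are not in the table.

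Of the 10 members of highest level, 8 were not called on the diet average. Slc38a4 had 239 to 775 CPM in CR (median 339) and 258 to 547 CPM in AL livers (median 331), and its log2 fold change was 0.15 ± 0.15. Slc38a3 had 137 to 954 CPM in CR (median 323) and 195 to 712 CPM in AL (median 301), with 0.04 ± 0.16, an interval of -0.31 to 0.38. Slc6a13 had 45.8 to 140 CPM in CR (median 109) and 63.6 to 125 CPM in AL (median 93.3), with 0.18 ± 0.15. Slc6a12, its neighbour on chromosome 6, had 21.5 to 63.5 CPM in CR (median 39.9) and 21.9 to 46.2 CPM in AL (median 33.7), with 0.35 ± 0.16 and an adjusted p of 0.170 (edgeR's quasi-likelihood test, Benjamini-Hochberg). Slc1a2 had 39.9 to 198 CPM in CR (median 72.2) and 44.5 to 87.1 CPM in AL (median 63.7), with 0.20 ± 0.15. Slc38a10 had 13.3 to 33.4 CPM in CR (median 21.2) and 10.8 to 46.3 CPM in AL (median 27.6), with -0.39 ± 0.17 and an adjusted p of 0.145 by the same test. Slc3a2 had 0.02 ± 0.13, an interval of -0.24 to 0.29, and Slc38a2 0.28 ± 0.16, an interval of -0.05 to 0.62.

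The means of the 2 libraries of each group follow for the members of highest level that were not called on the diet average, in the order ZT2, ZT6, ZT10, ZT14, ZT18 and ZT22. Slc38a4 had means of 347, 399, 544, 503, 315 and 264 CPM in CR livers and 314, 455, 360, 318, 342 and 297 CPM in AL livers. Slc38a3 gave means of 260, 243, 815, 292, 316 and 309 CPM in CR livers and 359, 273, 646, 329, 206 and 298 CPM in AL livers. Slc38a3 had its highest mean at ZT10 in both diets. The ZT10 mean of Slc38a4 in CR joins libraries of 314 and 775 CPM, so its highest hour in CR rests on CR ZT10 2. For Slc6a13 there were means of 119, 72.5, 90.0, 108, 113 and 125 CPM in CR livers and 80.6, 88.8, 92.3, 81.3, 122 and 87.1 CPM in AL livers. Slc6a12 showed means of 32, 43.1, 51.6, 42.5, 55.7 and 32.7 CPM in CR livers and 28.2, 40.5, 29.9, 31.7, 34.3 and 34.7 CPM in AL livers. Slc6a13 and Slc6a12 lie next to each other on the plus strand. Slc1a2 reached means of 49.8, 72.2, 140, 79.8, 75.6 and 51.5 CPM in CR livers and 60.0, 65.6, 82.1, 59.8, 52.0 and 68.2 CPM in AL livers. Slc38a10 held means of 28.9, 22, 23.8, 16.7, 17.2 and 20.8 CPM in CR livers and 23.5, 17.5, 35.2, 35.4, 27.2 and 33.4 CPM in AL livers. Slc1a2 was highest at ZT10 in both diets, though its CR mean at ZT10 joins libraries of 82.1 and 198 CPM. The heavy chain Slc3a2 had means of 19.6, 24, 15.3, 37.3, 36.5 and 23.4 CPM in CR livers and 15.9, 42.9, 19.7, 28.3, 34.4 and 15.8 CPM in AL livers. The system A carrier Slc38a2 had means of 25.0, 17.1, 67.2, 38.7, 14.8 and 20.4 CPM in CR livers and 20.2, 26.7, 39.1, 19.3, 12 and 20.9 CPM in AL livers. Slc38a2 was highest at ZT10 and lowest at ZT18 in both diets. Its CR mean at ZT10 joins libraries of 39.7 and 94.6 CPM, of which the lower is near the CR mean of 38.7 CPM at ZT14.

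At single time points no member was called, where between 0.387% (ZT6) and 1.7% (ZT14) of all tested genes were. The shares at the other hours were 0.562% at ZT2, 0.742% at ZT10, 0.562% at ZT18 and 0.936% at ZT22 (edgeR's quasi-likelihood test, Benjamini-Hochberg adjusted). An unadjusted p under 0.05 was found for 2 members at ZT2, 3 at ZT6, 4 at ZT10, 6 at ZT14, 1 at ZT18 and 3 at ZT22. DESeq2 called Slc7a2 at ZT10, where it called 2.2% of all tested genes, and Slc7a2 and Slc6a16 at ZT14, where it called 4%. At the other hours it called no member, against 1.38% of tested genes at ZT2, 2.07% at ZT6, 1.52% at ZT18 and 3.4% at ZT22. At ZT14 Slc6a16 had 1.37 and 2.77 CPM in CR and 0.213 and 0.228 CPM in AL livers. These AL values rest on 4 and 2 counts. The difference of Slc6a16 at ZT14 was 3.21 ± 1.12 log2 units, with an adjusted p of 0.178 (edgeR's quasi-likelihood test, Benjamini-Hochberg). The median SE of a member's difference was 0.47 to 0.49 log2 units at a time point, so that with 2 libraries per group small differences were not detectable. The largest differences of Slc7a2 were 1.27 ± 0.36 at ZT10 and 1.28 ± 0.36 at ZT14, with adjusted p-values of 0.128 and 0.0793 (edgeR's quasi-likelihood test, Benjamini-Hochberg). No member and 0% of all tested genes were called for a diet difference that varies over the day, with 1 member at an unadjusted p under 0.05 and none called by DESeq2, which called 1.21% of all tested genes.

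Several carriers differed between the hours of the day. Over both diets together, 7 of 35 members differed between time points, 20.0% against 18.4% of all tested genes, so the share was again close to the background (edgeR's quasi-likelihood F-test of time point in an additive model of diet and time, adjusted p under 0.05 by Benjamini-Hochberg, a test added after the data were seen). The 7 were Slc7a2, Slc6a6, Slc38a2, Slc38a3, Slc3a2, Slc3a1 and Slc7a8. An unadjusted p under 0.05 was found for 14.

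Slc38a3 stood highest at ZT10 in both diets. Its ZT10 libraries had 954 and 677 CPM in CR and 581 and 712 CPM in AL, all 4 above the other 20 libraries, of which the highest had 430 CPM. The mean over the diets was 731 CPM at ZT10 and 258 CPM at ZT6, the lowest hour, a ratio of 2.83 (edgeR's quasi-likelihood F-test, Benjamini-Hochberg adjusted p = 0.00148). At ZT18 the mean was 261 CPM, and ZT18 was the lowest hour without CR ZT6 2, CR ZT18 2, AL ZT6 1 or AL ZT18 1. Slc7a2 had mean levels over the diets of 325 CPM at ZT10 and 52.0 CPM at ZT18, a ratio of 6.24 (adjusted p = 1.72e-05 by the same F-test from edgeR). Slc38a2, the system A carrier that cells are known to raise when amino acids are scarce, had 39.7 and 94.6 CPM in CR and 39.3 and 38.8 CPM in AL livers at ZT10. At ZT18, its lowest hour, it had 14.5 and 15.1 CPM in CR and 8.79 and 15.2 CPM in AL, and the ratio of the means was 3.96 (adjusted p = 0.00140 by the F-test from edgeR).

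Slc3a2 was low at ZT10 rather than high. Its ZT10 libraries, with 13.0 and 17.7 CPM in CR and 20.5 and 18.8 CPM in AL, were among the lowest, and its ZT18 libraries, with 39.5 and 33.4 CPM in CR and 35.3 and 33.5 CPM in AL, among the highest. The ratio of ZT18 to ZT10 was 2.02 (edgeR's quasi-likelihood F-test, Benjamini-Hochberg adjusted p = 0.00453). The mean over the diets was 17.5 CPM at ZT10, near the 17.8 CPM of ZT2 and the 19.6 CPM of ZT22. Without CR ZT2 1, CR ZT10 1B, AL ZT2 2 or AL ZT10 2 the lowest hour was ZT2. The highest single value was 54.1 CPM in AL ZT6 1, and without AL ZT6 2 the highest hour was ZT6. Without a composition factor this call was lost, at an adjusted p of 0.397 by the same F-test from edgeR. Slc6a6 was highest at ZT22, with a mean over the diets of 87.6 CPM, and lowest at ZT14, with 27.5 CPM, a ratio of 3.18 (adjusted p = 0.000621 by the F-test from edgeR).

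Slc3a1, the heavy chain of the cystine carrier of kidney, and Slc7a8, the large neutral amino acid carrier LAT2, were called at low levels and less firmly. Slc3a1 had 0.199 to 8.50 CPM in CR and 0.380 to 20.4 CPM in AL livers, and the 20.4 CPM were those of AL ZT22 2C, the other AL library of that hour being at 2.23 CPM. Its highest hour was ZT22 with that library (8.91-fold over ZT18) and ZT2 without it (6.01-fold over ZT18), and without CR ZT6 2 and CR ZT18 2 together the call was lost (adjusted p of 0.0202 with and 0.0692 without, edgeR's quasi-likelihood F-test, Benjamini-Hochberg). Leaving out AL ZT18 2 or AL ZT22 2d gave ratios of 16.1 and 15.1. The mean over the diets was 0.729 CPM at ZT18, near the 0.760 CPM of ZT6. ZT6 was the lowest hour without CR ZT6 1, AL ZT6 2 or AL ZT18 1. By diet, the highest mean was 6.06 CPM at ZT2 in CR and 11.3 CPM at ZT22 in AL livers. The CR ZT10 libraries had 0.359 and 8.50 CPM. Prepl overlaps 26.5% of the exon bases of Slc3a1. For Slc7a8 the mean over the diets was 2.18 CPM at ZT22, near that of ZT10. ZT22 was its highest hour without CR ZT22 1, AL ZT10 1 or AL ZT22 2d. Slc7a8 was highest at ZT10, with 2.27 CPM over the diets, and lowest at ZT14, with 0.722 CPM (adjusted p = 0.0466 by the F-test from edgeR), and its call held in 4 of 24 fits that left 1 library out, with adjusted p-values of 0.00814 to 0.129. It was lost, among others, without CR ZT6 2 (0.0507), CR ZT18 2 (0.0663) or AL ZT22 2C (0.0688). Without CR ZT18 2 the test between hours also called Slc36a1 and Slc43a2, and without AL ZT22 2C it also called Slc43a2.

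**Figure D5:**
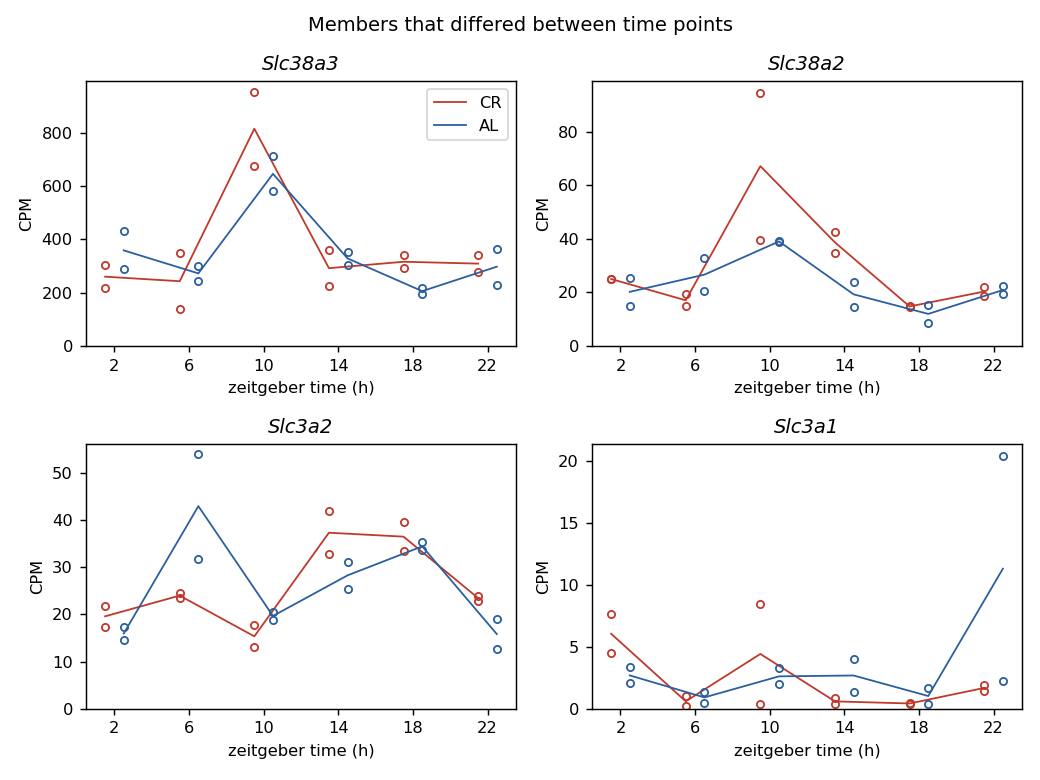
CPM of Slc38a3, Slc38a2, Slc3a2 and Slc3a1 by zeitgeber time, with CR left of AL at each hour; open points are single libraries and lines join the means of 2. Slc38a3 stands at 581 to 954 CPM at ZT10 in both diets, and the Slc3a1 value of 20.4 CPM at ZT22 is 1 AL library.

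A 24 h rhythm was called for 1 member in CR livers, Slc7a2, against 1.94% of all tested genes, and for none in AL livers, against 0.42% (edgeR's quasi-likelihood F-test of cosine and sine terms, Benjamini-Hochberg). In CR the amplitude of Slc7a2 from mean to peak was 1.00 log2 unit with a peak at ZT 7.93 (adjusted p = 0.0443 by the same test from edgeR), and in AL it was 0.80 with a peak at ZT 6.03 and an adjusted p of 0.310. The CR call held in 9 of 24 fits that left 1 library out, with adjusted p-values of 0.0141 to 0.127. No member, and 0% of all tested genes, was called for a rhythm that differs between the diets, with 2 members at an unadjusted p under 0.05 and none by DESeq2, against 0.0387% of all tested genes. In AL, 2 members had an unadjusted p under 0.05 and DESeq2 called none, against 1.72%. In CR, DESeq2 called Slc7a2, Slc1a2, Slc38a2 and Slc38a4, which is 4 of 35 members, against 4.71% of all tested genes. In each of these 4 the higher of the CR ZT10 values was that of CR ZT10 2. CR ZT10 1B and CR ZT10 2 had 82.1 and 198 CPM of Slc1a2 and 39.7 and 94.6 CPM of Slc38a2. For Slc38a4 these libraries had 314 and 775 CPM, and for Slc7a2 313 and 606 CPM. DESeq2 was not run without CR ZT10 2.

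The remaining members stood lower. In the Slc7 family, the cationic carrier Slc7a1 had 0 to 0.809 CPM in CR and 0 to 0.469 CPM in AL livers, a log2 fold change of 1.16 ± 0.54 and an adjusted p of 0.167 (edgeR's quasi-likelihood test, Benjamini-Hochberg). Slc7a5, the large neutral carrier LAT1, had 0.397 to 1.54 CPM in CR and 0.448 to 2.39 CPM in AL, with -0.10 ± 0.27. In the Slc1 family, the glutamine carrier Slc1a5 had 0.332 to 4.16 CPM in CR (median 1.59) and 0.429 to 2.42 CPM in AL (median 1.05), with 0.72 ± 0.28 and an adjusted p of 0.102 by the same test. It was called in 3 of the 24 fits that left 1 library out, those without CR ZT6 2, CR ZT10 2 or AL ZT22 2C.

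Carriers of the lysosome and the facilitative carriers were not called either. Slc38a9, a lysosomal carrier that reports arginine to mTORC1, had 1.61 to 4.80 CPM in CR and 3.19 to 5.63 CPM in AL livers, with -0.18 ± 0.16. Slc36a1, a proton-coupled carrier of lysosomes, had 1.20 to 12.1 CPM in CR and 4.59 to 16.1 CPM in AL, with -0.36 ± 0.20, and the lysosomal glutamine carrier Slc38a7 had 3.81 to 11.0 CPM in CR and 4.11 to 9.35 CPM in AL, with 0.05 ± 0.17. The 3 members of Slc43 had values of 0.02 to 0.26, and the creatine carrier Slc6a8 0.04 ± 0.22. Slc1a3, Slc6a4 and Slc7a15 had at least 1 group without counts, and the fit of group means gives them no usable SE. In Slc38a6, Slc6a9 and Slc3a1, 35.5%, 26.3% and 24.8% of the 50-base words of their transcripts also occur in transcripts of other genes, so that reads there can be shared.

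In 4 lists of genes around these carriers, 8.33% to 23.3% of the tested genes were called on the diet average, against 12.7% of all tested genes. Of 16 tested genes in a list of other amino acid and peptide carriers, 3 were higher and 0 lower, 18.8% in all: the lysosomal histidine and peptide carrier Slc15a4 by 0.63 ± 0.14, the mitochondrial ornithine carrier Slc25a15 by 0.61 ± 0.14 and the aromatic amino acid carrier Slc16a10 by 0.39 ± 0.13, with adjusted p-values of 0.00418, 0.00484 and 0.0494 (edgeR's quasi-likelihood test, Benjamini-Hochberg). Their median was 0.12. Of 12 tested partners and regulators, only the kinase Sgk2 was called, higher by 0.69 ± 0.15 (adjusted p = 0.00462 by the same test from edgeR), and the median was -0.05.

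Of 26 tested genes of amino acid sensing upstream of mTORC1, folliculin's partners Fnip1 and Fnip2 were higher by 0.60 ± 0.13 and 0.54 ± 0.18, and Sec13, a subunit of the GATOR2 complex and of the nuclear pore, was lower at -0.40 ± 0.12, with adjusted p-values of 0.00421, 0.0477 and 0.0275 (edgeR's quasi-likelihood test, Benjamini-Hochberg). The median was -0.06. Of 30 tested ATF4 targets of amino acid stress, 3 were higher and 4 lower, 23.3% in all, with a median of -0.00061, and adjusted p-values of the 7 from 2.92e-05 to 0.0213 (edgeR's quasi-likelihood test, Benjamini-Hochberg). Vldlr, a lipoprotein receptor, was higher by 3.92 ± 0.54, the cystathionine lyase Cth by 0.92 ± 0.15 and the pseudokinase Trib3 by 1.29 ± 0.27. Asparagine synthetase Asns was lower at -1.43 ± 0.37, the folate enzyme Mthfd2 at -0.99 ± 0.25, the translation repressor Eif4ebp1 at -0.65 ± 0.16 and the glutathione-degrading enzyme Chac1 at -1.75 ± 0.49. Periportal hepatocyte markers moved in the same libraries, with 6 of 10 called higher and 2 lower, a median of 0.73, and summed levels of 2655 to 7658 CPM in CR and 1767 to 3629 CPM in AL livers. None was at 0 in all libraries, and their part in the higher values of Slc7a2 and Slc6a6 was not tested.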

How the data were processed

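Deposited values are raw read counts per gene, whole numbers without normalization, 1 file per library. FastQC, HTSeq and DESeq2 are the tools named, with build GRCm38.p5, per the submitters' processing notes; the aligner is not given in the sources used here. Per the labels, libraries were poly(A)-selected and non-stranded, so overlapping genes cannot be told apart. Symbols, biotypes and exon lengths came from the GRCm38 reference annotation, and 52403 of 52636 identifiers had a symbol.

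The members and all lists were chosen with earlier results of these data known. Counts were fitted with edgeR 4.0.16 in R 4.3.3 (TMM, filterByExpr by the 12 groups, 15490 genes), all 24 libraries in 1 model with a mean per group, and Benjamini-Hochberg adjustment over all tested genes at 0.05. Rhythms used a cosine and sine of 24 h per diet. Libraries of a group differed beyond sampling noise (chi-square per degree of freedom 99.3 to 2090). The procedures were tested on simulated data. CPM are TMM-scaled, and per kilobase values use the union of exons.

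Values in every library or group are given for members called by any planned test, and for the 10 members of highest level. Other tested members have ranges, and each list up to 3 called genes of smallest p. Eif4ebp1, Mthfd2, Asns and Chac1 go past that number and were named after their values were seen, as were Slc3a1, Slc3a2 and Slc7a8 of the added time test. Alternatives were DESeq2 1.42.0, other scalings and filters, handling of ribosomal RNA reads, the additive model, subsets of libraries, single libraries left out in turn and a replicate block. A result on 1 member is not reported here.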

Additional observations from a re-analysis of the deposited data

Results flagged for a closer look

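A few members that did not pass the filter on low counts owed nearly all their reads to 1 library, and no AL library reached such counts. In CR ZT18 2, Slc36a2, a proton-coupled carrier, had 54 of its 58 counts, Slc7a10, a carrier of small neutral amino acids known from brain and fat, 45 of 50, and the proline carrier Slc6a20a 25 of 26. This was the library of greatest depth. It held 2.69 CPM of Adipoq, 0.951 CPM of Plin1 and 57.4 CPM of Cfd, markers of fat cells, against at most 1.09, 0.140 and 6.44 CPM in any other library. Krt19, a marker of bile duct cells, was also highest there, with 10.3 CPM against at most 3.17 CPM. Epcam, another bile duct marker, was not, with 1.14 CPM there and up to 3.02 CPM elsewhere. The summed level of 8 bile duct markers was highest in AL ZT22 2C, at 126 CPM, against at most 59.1 CPM in CR libraries. The adipocyte marker sum was 119 CPM in CR ZT18 2. It was 10.9 to 27.4 CPM in the other CR libraries and 5.86 to 16.1 CPM in the AL libraries. Lep was at 0 counts in CR ZT18 2, and the part of these markers in the carriers' counts was not tested. In CR ZT10 1B the proline carrier Slc6a7 had 8 of its 10 counts. Without CR ZT18 2, Slc7a2, Slc6a6 and Slc7a7 remained called on the diet average and Slc7a4 did not.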

How the results depend on the processing

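On the diet average, no member changed direction past the threshold in any fit run. Of 1249 member values of that average under alternatives, 1156 kept direction and side of the threshold. A call was lost by 24 and gained by 11, and 58 uncalled values over 19 members changed sign. Slc7a2 and Slc6a6 stayed called on the diet average in all 12 alternatives and all 24 fits that left 1 library out, and Slc7a7 in the 11 alternatives that tested it. Slc7a4 was lost without a composition factor (adjusted p = 0.132, edgeR) and with no filter (0.136), besides the losses given above. With no filter on low counts, 2 members were called lower on the diet average (4.7% of all genes tested). A filter of 1 CPM in 12 libraries, which leaves Slc7a7 and Slc7a4 out, gave 0 lower (7.36%). Called higher in that fit were Slc7a2 and Slc6a6, where 8.26% of all genes tested were. The fit of the 12 libraries with less ribosomal RNA compared the diets only at ZT10 and ZT18. DESeq2 called 1 member at ZT10, 2 at ZT14 and 4 for the CR rhythm. With no filter, 2 were called at ZT14 (2.24% of all genes tested in that fit), 1 at ZT22 (2.09%), 1 for the interaction (2.63%), 4 for the CR rhythm (4.62%), 2 for the AL rhythm (1.66%), 1 for the rhythm difference (1.1%) and 11 between time points (14.6%). With ribosomal RNA as a covariate, 1 was called at ZT14 (2.1%) and 0 for the CR rhythm (1.65%). Without a composition factor, 3 were called at ZT22, where 11% of all tested genes were, and 0 for the CR rhythm (1.21%), which was also 0 without CR ZT6 2 and CR ZT18 2. The cause of these shifts was not tested. Leaving out 1 library gave 2 to 4 members higher and 1 to 3 lower on the average, 0 to 1 at ZT10 and at ZT14, 0 to 2 for the CR rhythm and 6 to 10 between time points.

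The deviations of same-numbered libraries correlated at -0.254 to 0.514 over 55 pairs of groups, with 9 over 0.1, so the numbers were not taken to pair the libraries. With the replicate block, 2 members were called higher (5.03% of all tested genes) and 1 lower (6.53%) on the average, with Slc7a4 at an adjusted p of 0.0570 (edgeR), 0 for the CR rhythm (1.9%) and 6 between time points (17.5%). DESeq2 was not run for the test between time points, which was chosen after seeing the data. Depth limits the low members most: Slc7a7 rests on 1 to 108 counts per library and Slc7a4 on 3 to 133.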
